A study of Mus musculus with 6 samples.

Results

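The probes described here are those that an Agilent mouse array names by a stretch of the genome and not by a gene or transcript. Each name holds a chromosome, a start, an end and, in nearly every case, the suffix F or R. The files do not explain the suffixes, and they are called strand labels here. Of the 55681 non-control probes, 16194 (29.1%) carried such a name, 1 spot each. They covered 3543 intervals, given in mouse build mm9 per the file headers, on 20 chromosomes (1 to 19 and X). An interval and its strand label together make 1 name, and there were 4610 names with a median of 3 and at most 10 probes. Lengths ran from 62 bp to 7128487 bp, with a median of 7304 bp. Probes with the F label alone covered 1251 intervals, those with the R label alone 1222, both labels 1067, and 3 intervals had no label. The probes were chosen by name alone, without any measured value. They were proposed as probes for long intergenic noncoding RNA. The files give neither a transcript class nor gene positions, so whether an interval lies between genes, in an intron or in an exon was not examined here, and the probes are called interval probes.

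Long noncoding RNAs are long transcripts without a long reading frame. Many are spliced and polyadenylated like messenger RNA, are made at lower levels, and are more restricted to a cell type. Some act on the chromatin or transcription of genes nearby, others elsewhere in the nucleus or in the cytoplasm, and for many no function is known. An interval read by several probes gives several readings of 1 region, which need not belong to 1 transcript.

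The cells were epiblast stem cells (EpiSCs) of mouse strain 129/Sv, pluripotent cells like those of the postimplantation epiblast. The labels give 3 groups of 2 cultures, A and B, all grown from the same seed culture. The EpiSC group was kept in the epiblastic maintenance condition, NPC1 spent 1 day and NPC2 spent 2 days in a neural plate condition. No genetic change is given in the labels for any group. Total RNA was labelled with Cy3 and each culture was read on 1 array, all on 1 slide. As the duplicates share a seed culture, p-values measure only the spread between such cultures. The labels pose the question of how expression differs between the epiblastic condition and the neural plate condition.

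Most of the listed epiblast and neural plate genes ran with the labels, but not all. Pou5f1, the pluripotency factor Oct4, had scaled intensities of 29041 and 32410 in EpiSC, 17143 and 18394 in NPC1 and 4899 and 4810 in NPC2. Sox1, an early neural plate factor, went from 48.2 and 44.3 through 315 and 308 to 2470 and 2407. Of the 5 listed epiblast genes, 3 fell by day 2 and 2 rose. Nanog rose from 127 and 136 to 229 and 233, and Otx2 from 12361 and 12451 to 22109 and 20327. All 5 listed neural plate genes rose by day 2. Zic2 was highest in NPC1, at 2160 and 1985, then 3884 and 3672, then 3023 and 2908. A scaled intensity is the background-subtracted signal after each array's 75th percentile over probes was set to a common 360.7. Markers of other cell types moved as well. The summed level of 3 neuron genes was 836 and 869 in EpiSC, 3780 and 3331 in NPC1 and 2261 and 2411 in NPC2. Tubb3 made up most of this sum, at 792 and 826, then 3761 and 3300, then 2205 and 2359. Neurog2, well above background in NPC2 alone, rose by day 2, and Dcx fell from 41.4 and 40.8 to 18.9 and 21.5. The sum of 3 endoderm genes was 2234 and 2141, then 144 and 168, then 553 and 621. Foxa2 made up most of it, at 2091 and 1989, then 106 and 135, then 522 and 590. Sox17 went from 71.0 and 85.9 through 18.4 and 20.4 to 13.5 and 8.33. Gata6 went from 72.4 and 66.4 through 20.0 and 12.4 to 16.9 and 22.4. Of 6 fibroblast and feeder genes 5 were well above background on all arrays and Lum was on none, and their sum was 2926 and 3076, then 3960 and 3823, then 4889 and 4677. Within it Col1a2 and Thy1 rose by day 2, while Twist2 fell from 167 and 168 to 60.3 and 59.1. These sums thus follow their brightest genes. The part of these cell types in the changes below was not tested, and in RNA of whole cultures fewer cells of a type and less RNA per cell cannot be told apart.

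Interval probes were detected less often than probes for RefSeq transcripts, on every array. A probe counts as detected where the scanner software marks its signal as well above background. After 13 probes with a spot marked as an outlier were left out, 16181 had values on all 6 arrays. On single arrays 42.9% to 47.2% of them were detected, against 70.6% to 72.5% of probes with a RefSeq mRNA accession and 50.1% to 55.7% of those with a RefSeq noncoding accession. On all 6 arrays 6038 interval probes (37.3%) were detected and on no array 7353 (45.4%), against 67.0% and 23.2% of mRNA probes. The software's looser mark, a signal positive and significant against background, held for 68.4% to 72.0% of interval probes per array. Of the 4610 names 1013 had no probe well above background on any array. Of the 3380 names with 3 or more probes, 538 had every probe detected on all 6 arrays and 1622 had some but not all, so probes of 1 name often differed in detection.

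**Figure D1:**
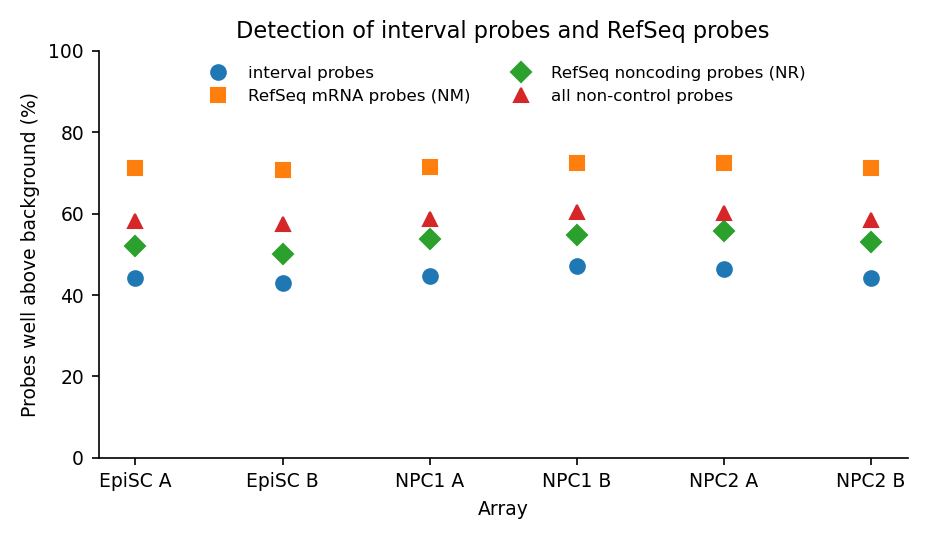
Share of probes well above background (y axis, percent) on each of the 6 arrays (x axis), 1 point per array and probe class; interval probes lie between 42.9% and 47.2%, RefSeq mRNA probes between 70.6% and 72.5%.

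Detection varied with the strand label, with length and with chromosome. Probes labelled R were detected on all 6 arrays in 40.1% of 8005 cases and those labelled F in 34.5% of 8163. In 3 length classes with about equal numbers of intervals the shares were 34.3% (shortest), 38.9% and 37.3% (longest). By chromosome they ran from 29.9% on chromosome 10 to 46.3% on X. These shares are descriptions, since neighbouring probes can share a transcript.

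Detection in 1 condition alone was rare, and about as frequent as over all 55646 non-control probes with values. In EpiSC alone, on both arrays and on no other, 60 interval probes were detected (0.371%, against 0.374% of all probes). In NPC1 alone it was 52 (0.321% against 0.239%) and in NPC2 alone 114 (0.705% against 0.713%). A further 129 were detected on all 4 neural plate arrays and on neither EpiSC array (0.797% against 0.801%), and 102 on all EpiSC and NPC1 arrays and on neither NPC2 array (0.630% against 0.545%). Detection on both EpiSC and both NPC2 arrays and on neither NPC1 array was found for 15 (0.0927% against 0.0845%).

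Across the days the interval probes moved in both directions, more on day 2 than on day 1. The test was limma on log2 intensities scaled to the 75th percentile, over the 33536 probes of any kind detected on both arrays of at least 1 group, and a probe is called where its Benjamini-Hochberg adjusted p over all of them is under 0.05. Of the interval probes 7495 passed that filter. A probe seen in 1 group alone passes it because it is high there, so counts over these probes describe them and not all 16194. By day 1, 267 were at least 2-fold higher than in EpiSC (3.56% of those tested, against 3.91% of all tested probes) and 140 at least 2-fold lower (1.87% against 2.79%). By day 2, 594 were at least 2-fold higher than in EpiSC (7.93% against 8.77%) and 476 at least 2-fold lower (6.35% against 8.16%). Between day 1 and day 2, 202 were at least 2-fold higher (2.70% against 3.64%) and 312 at least 2-fold lower (4.16% against 4.92%). These shares lie near or below those of all probes. With normexp background correction, which adds an offset of 50 and so shrinks the folds of dim probes, the 2-fold counts fell to 18 and 37 (NPC1 against EpiSC), 80 and 134 (NPC2 against EpiSC) and 29 and 50 (NPC2 against NPC1). Among probes detected on all 6 arrays they were 125 and 59, 329 and 266, and 105 and 153.

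**Figure D2:**
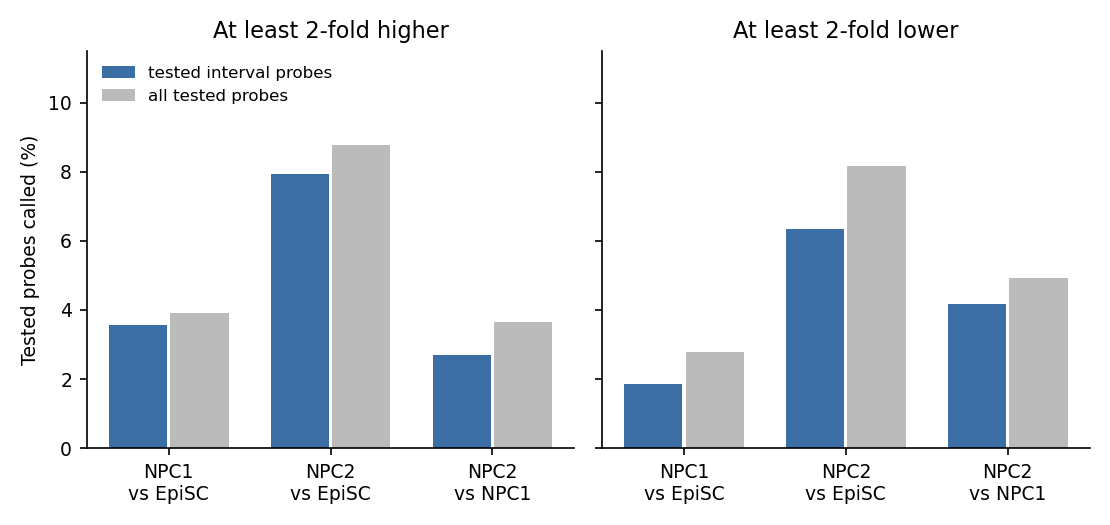
Percent of tested probes called at least 2-fold higher (left) or lower (right) in each comparison (x axis), for the 7495 tested interval probes and all 33536 tested probes; bars start at 0. The interval probes' bars are the lower of each pair, from 1.87% to 7.93%.

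Without a limit on size, 1077 interval probes were called higher and 618 lower on day 1 (14.4% against 16.0% of all tested probes, and 8.25% against 17.3%). On day 2, 1646 were called higher than in EpiSC and 1345 lower (22.0% against 23.9%, and 17.9% against 30.7%). From day 1 to day 2, 722 were called higher and 935 lower (9.63% against 13.7%, and 12.5% against 18.2%). The direction of small changes hung on the scaling. The median log2 change of the tested interval probes was 0.06 on day 1 and 0.02 on day 2 against EpiSC, beside -0.01 and -0.05 over all tested probes. With arrays set to their medians it was -0.04 and -0.06, and with the values the authors deposited it was 0.18 and 0.25. The balance of calls moved with the scaling among interval probes and among all probes alike. On day 1, 63.5% of the interval probes' calls were higher (48.0% over all probes), and 46.6% with median scaling (33.4%), 78.4% with the 75th percentile taken over probes detected on all arrays (65.3%) and 80.9% with the authors' deposited values (68.4%). On day 2 against EpiSC the share was 55.0% (43.8%), and 71.2% (60.4%) with that percentile. Median scaling turned this balance, to 1420 higher and 1723 lower, as did normexp, to 1379 and 1509. The authors' deposited values gave 2607 higher and 819 lower (34.8% and 10.9%, against 37.04% and 19.02% of all tested probes). From day 1 to day 2 the balance turned with that percentile, to 888 higher and 794 lower, and with the authors' deposited values, to 1020 and 703 (13.6% and 9.38%, against 19.1% and 13.5% of all tested probes). Interval probes also carried a wider error than others, with a median standard error of 0.128 on the log2 scale against 0.0860 over all tested probes.

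Called probes of 1 name mostly had 1 direction, but often only part of a name's tested probes was called. In NPC2 against EpiSC 717 names had 2 or more called probes, and in 681 of them all called probes had 1 direction. In NPC1 against EpiSC it was 390 of 404, and in NPC2 against NPC1 376 of 386. Of the 1229 names with 3 or more tested probes, 154 had every tested probe called higher on day 2, 106 had every one called lower, and 363 had none called. On day 1 the counts were 88, 37 and 634. The remaining names had only part of their tested probes called, or calls both ways. On each day they outnumbered the names with every tested probe called in 1 direction. Probes of 1 name share a region, so they are repeated readings and not separate replicates of a condition.

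The intervals with the largest changes are given next with their values on each array, in the order EpiSC A and B, NPC1 A and B, NPC2 A and B. Tags L1 to L8 stand for the intervals of the plot of leading intervals by array. Where both arrays of a group left a probe short of that detection mark, its fold is a lower bound against the dimmest signal that counted as detected, 8.03 to 9.67 in scaled intensity depending on the array, and is written as at least N-fold. Log2 changes come with their standard error (SE) and limma's adjusted p, with 2 cultures in each group.

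The steepest rise was in L1, chr2:33500594-33501874, label F, a stretch of 1281 bp with 3 probes. Its probe A_30_P01026417 read 40.4 and 45.0, then 490 and 447, then 1733 and 1868. The groups did not overlap, and the rise was 3.46 on day 1 and 5.40 on day 2 (SE 0.0894; adjusted p = 2.6e-05 for day 2). The other two probes were not well above background in EpiSC. A_30_P01032763 read 2.15 and 2.31, then 207 and 188, then 662 and 714, at least 21.0-fold higher on day 1 and at least 73.4-fold on day 2. A_30_P01026088 read 2.31 and 2.90, then 93.5 and 81.4, then 324 and 353, at least 36.1-fold higher on day 2. All 3 probes thus gave low EpiSC signals and a stepwise rise.

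L2, chr3:87757295-87774970, label F, covered 17676 bp, and 4 of its 5 probes rose by 4.49 to 4.61 on day 2. Its probe A_30_P01020627 read 1445 and 1449, then 9001 and 9133, then 32740 and 32319 (rise 4.49, SE 0.0495; adjusted p = 2.4e-05). The fifth probe, A_30_P01026280, was bright from the start, at 34686 and 36222, then 34702 and 35924, then 33474 and 32922. Its change of -0.09 on day 2 did not pass the test (SE 0.0558; adjusted p = 0.21). Within this 1 interval, then, 4 probes multiplied their signal and 1 stayed within 32922 to 36222. The same stretch with the label R also had 4 of 5 probes tested. All 4 were called higher than in EpiSC on both days, 3 of them from EpiSC signals not well above background, and 2 were also called higher on day 2 than on day 1. Of these A_30_P01021008 read 18.0 and 16.4, then 41.5 and 44.0, then 102 and 96.8 (rise 2.53 on day 2, SE 0.0744). A_30_P01021646 of this label passed the filter through NPC2 alone, the group where it was high, so its calls support nothing further.

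On chromosome 8 a rise on both days was read by L3, chr8:94841965-94881130, label R, and by the single probe of chr8:94849929-94870274, label R, which lies inside it. All 5 probes of L3 rose, by 2.95 to 4.23 on day 2 in the 4 detected on all arrays and at least 12.2-fold in the other, A_30_P01029933. Its probe A_30_P01032788 read 72.9 and 53.9, then 346 and 376, then 1112 and 1228. The probe of the inner interval, A_30_P01027299, read 32.4 and 29.7, then 197 and 230, then 626 and 646 (rise 2.78 on day 1 and 4.36 on day 2, SE 0.0986; adjusted p = 4.0e-05 for day 2). L3 was chosen after its values were seen.

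A late rise marked L4, chr8:90048940-90049461, label F, 522 bp long. Its probe A_30_P01029453 read 46.9 and 47.6, then 78.0 and 79.4, then 1195 and 1195. The step was 0.74 on day 1 and 3.93 from day 1 to day 2 (SE 0.0498; adjusted p = 0.00144 and 0.00011). All 3 probes had this shape, with rises of 0.51 to 0.74 on day 1 and 4.51 to 4.79 on day 2. The longer interval chr8:89996710-90049453, label F, ends inside L4, and its 3 probes rose on day 2, by 4.59 and 4.64 in the 2 detected on all arrays and at least 8.75-fold in A_30_P01021540. Of these A_30_P01022123 read 115 and 118, then 177 and 195, then 2845 and 2965. A_30_P01021540 passed the filter through NPC2 alone, the group where it was high, so its calls support nothing further. Another late riser lay on the same chromosome, chr8:34646787-34680312, label F. All 5 of its probes rose by 3.09 to 3.46 on day 2, and A_30_P01022320 read 30.5 and 31.4, then 51.3 and 49.0, then 256 and 279.

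Some day 2 rises started from a signal not well above background. chr2:115900355-115900904, label F, had 3 tested probes, all called higher on day 2. Its probe A_30_P01031970 read 2.27 and 2.39 in EpiSC, 4.39 and 7.86 in NPC1 and 98.9 and 92.6 in NPC2, at least 10.2-fold higher than in EpiSC and at least 10.9-fold higher than in NPC1. It passed the filter through NPC2 alone, the group where it was high. A neighbouring probe of it, A_30_P01031324, had NPC1 signals of 8.66 and 57.0, so its duplicates disagreed on day 1, and it was at least 13.6-fold higher on day 2 than in EpiSC. A_30_P01031324 also passed the filter through NPC2 alone, so the calls of these probes support nothing further. In chr1:42689799-42749799, label R, A_30_P01030648 read 49.5 and 55.8 in NPC2 and 2.44 and 2.07 in NPC1, at least 6.01-fold higher (adjusted p = 0.016). This probe passed the filter through NPC2 alone, the group where it was high, and so its p supports nothing further. The call was lost, with adjusted p between 0.068 and 0.077, when any 1 NPC1 or NPC2 array was left out. A bound of at least 6.05-fold in chrX:98658045-98677545, label R, rested on 1 array, since A_30_P01027798 read 149 in NPC2 A and 18.8 in NPC2 B, and it was not called (adjusted p = 0.085).

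The steepest fall was in L5, chr3:93150619-93184368, label R, 33750 bp long, where all 5 probes fell on both days. Of these A_30_P01023071 passed the filter through EpiSC alone, the group where it was high, so its calls support nothing further. A_30_P01028851 read 529 and 511 in EpiSC, 44.2 and 39.5 in NPC1 and 4.39 and 5.31 in NPC2, where it was no longer well above background. It fell by 3.64 on day 1 (SE 0.116; adjusted p = 0.00035), and was at least 59.8-fold lower on day 2. A_30_P01032811 went from 454 and 429 through 43.8 and 38.5 to 2.03 and 2.26, at least 50.7-fold lower. The groups of each were far apart, and no probe of L5 was well above background in NPC2.

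Shorter intervals within or beside L5 fell with it. chr3:93150607-93151201, label R, had 2 probes, and A_30_P01033536 read 389 and 363, then 31.9 and 30.1, then 3.27 and 4.57, at least 43.2-fold lower on day 2. chr3:93159107-93159613, label F, had 3 probes, and A_30_P01020234 read 290 and 246, then 25.7 and 19.3, then 2.27 and 2.51, at least 30.7-fold lower. The fall therefore appeared under both labels. All 3 probes of chr3:93156491-93157100, label R, fell as well. Of these A_30_P01023814 and A_30_P01029693 passed the filter through EpiSC alone, the group where they were high, so their calls support nothing further. The third, A_30_P01021246, fell by 2.23 on day 2. In chr3:93162669-93163114, label R, 2 probes fell on day 1, 1 of them at least 6.15-fold. Both, A_30_P01018723 and A_30_P01029186, were detected in EpiSC alone and passed the filter through that group, so their calls support nothing further. The third, A_30_P01026763, stood at 359 and 330, then 284 and 305, then 298 and 329, and was not called (change of -0.14 on day 2, adjusted p = 0.24).

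L6, chr3:75451370-75459674, label R, had 4 probes, all detected on all 6 arrays, and all 4 fell by 4.29 to 4.89 on day 2. A_30_P01020183 read 778 and 796, then 260 and 244, then 22.4 and 31.6 (fell by 1.64 on day 1 and by 4.89 on day 2, SE 0.171; adjusted p = 8.5e-05 for day 2). The spread among its 4 probes was small on day 1 as well, at -1.67 to -1.58.

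L7, chr2:128137419-128141735, label R, was 1 of 4 separate intervals on chromosome 2 that fell near each other. Its 3 probes fell by 1.07 to 1.21 on day 1 and by 3.19 to 3.73 on day 2, and A_30_P01027827 read 234 and 248, then 120 and 91.2, then 20.7 and 21.1. The next interval began 299 bp away, chr2:128142035-128142481, and none of its 3 probes was well above background in NPC2, where they were at least 11.1-fold to 14.3-fold lower than in EpiSC. In chr2:128211990-128215223, 70254 bp away from L7, all 3 probes were detected on all arrays and fell by 3.08 to 3.43. In chr2:128217275-128217972, 75539 bp away, all 3 probes were called lower, by 2.60 in A_30_P01029898, which was detected on all arrays, and at least 6.85-fold in A_30_P01023440. The longer interval chr2:127988295-128194920, which holds L7 and the next interval, had 4 called R probes with a smaller median of -1.93, and none of its 5 F probes was tested. All these neighbours fell, by amounts that differed between the intervals.

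L8, chr10:62347876-62374346, label R, did not move as 1. Of its 9 probes 8 were called lower on day 2. The changes of the 6 called probes detected on all arrays ran from -0.43 to -4.34, and A_30_P01031446 and A_30_P01026144 were at least 9.58-fold and 9.90-fold lower, not well above background in NPC2. A_30_P01028616 fell from 356 and 361 through 182 and 147 to 19.7 and 16.0 (fell by 4.34, SE 0.147; adjusted p = 7.8e-05). A_30_P01021109, in the same interval, read 587 and 575, then 641 and 548, then 442 and 422 (fell by 0.43, SE 0.0914; adjusted p = 0.015). Only 3 of the 9 were called on day 1, A_30_P01028616 and the 2 that were not well above background on day 2.

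**Figure D3:**
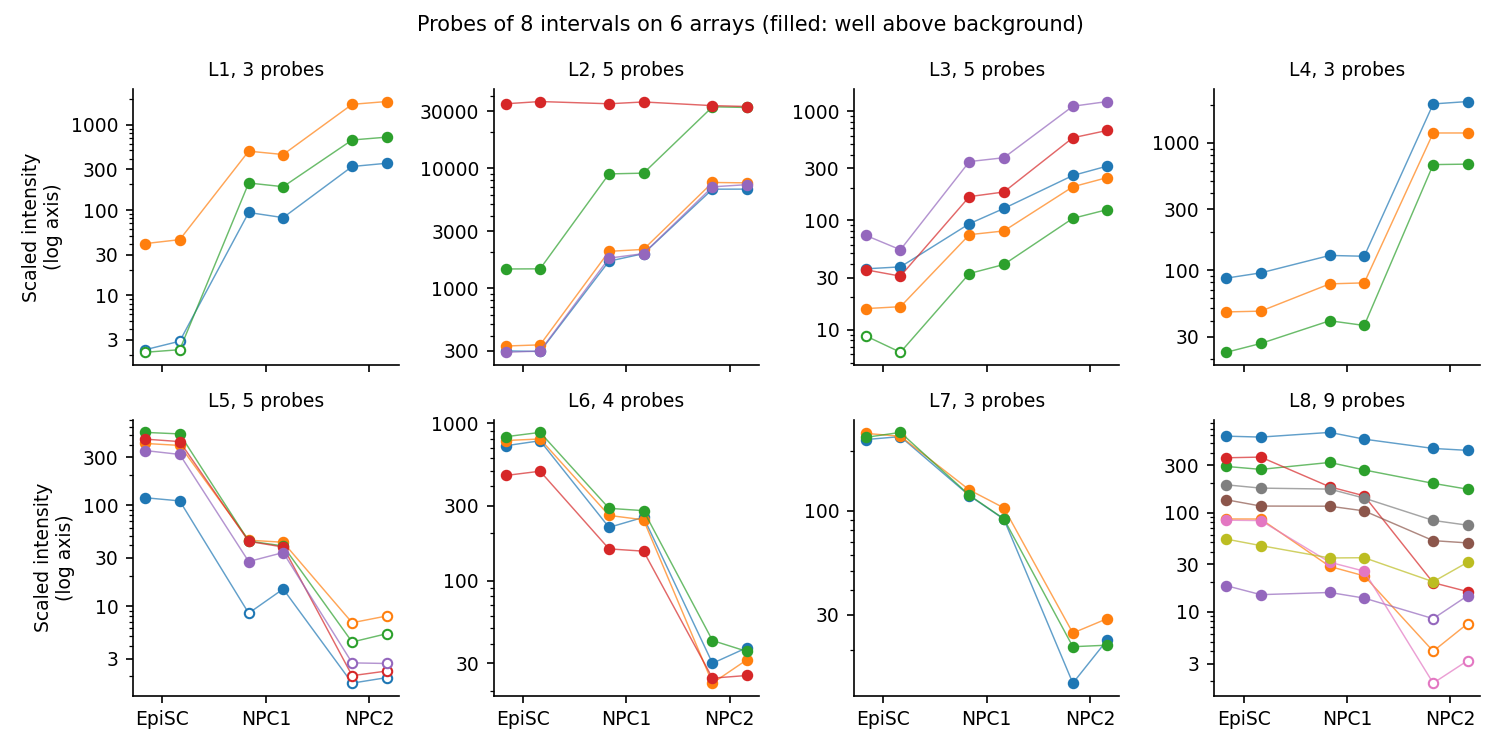
Scaled intensity (y axis, log) of every probe of L1 to L8 on the 6 arrays (x axis, A then B within each group), 1 colour and line per probe; filled points are well above background and open points are not. L1 to L4 rise, L5 to L7 fall, and 1 probe of L2 and several of L8 depart from the others of their interval.

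Further falls ended at signals not well above background on day 2. In chr6:108556270-108573161, label R, 6 of 7 tested probes were called lower on day 2, and A_30_P01028164 read 272 and 258, then 51.4 and 68.8, then 6.90 and 9.02, at least 30.5-fold lower. In chr8:87504644-87513694, label R, 4 of 5 probes were called lower, and A_30_P01030166 read 80.6 and 108, then 60.5 and 54.2, then 5.80 and 9.82, at least 10.4-fold lower. In chr13:66888650-66902600, label R, both probes were called lower on both days. Of these A_30_P01027950 was detected in EpiSC alone and passed the filter through that group, so its calls support nothing further. In 2 cases the duplicates disagreed. The tested probe of chr13:29106280-29120376, label F, A_30_P01031015, read 124 in EpiSC A and 32.5 in EpiSC B and was not well above background later, at least 7.24-fold lower on day 1. The bound was at least 3.71-fold without EpiSC A and at least 14.1-fold without EpiSC B. A_30_P01031015 was detected in EpiSC alone and passed the filter through that group, so its calls support nothing further. In chr4:146017200-146029700, label F, A_30_P01031321 read 37.1 and 137 in NPC1 and 7.25 and 9.92 in NPC2. It was at least 7.94-fold lower on day 2 than on day 1, at least 15.3-fold without NPC1 A and at least 4.13-fold without NPC1 B, and it was not called without NPC2 A or without NPC2 B (adjusted p = 0.11 and 0.079).

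A turn after day 1 was less common than a steady course. A day 1 peak, called higher in NPC1 than in EpiSC and lower in NPC2 than in NPC1, was found for 161 tested interval probes of 106 names (2.15%, against 2.65% of all tested probes). A day 1 dip, the opposite course, was found for 66 probes of 53 names (0.881% against 1.55%). A rise at both steps was found for 272 (3.63% against 5.74%) and a fall at both steps for 268 (3.58% against 7.05%). Of the peaks and dips together, 58 probes (0.774%, against 1.23% of all tested probes) were also called in opposite directions against EpiSC on the 2 days. The 2 tests of a course share the NPC1 arrays. Leaving out EpiSC B lowered the peaks to 98 and leaving out NPC2 A to 106. The dips numbered 38 to 41 without EpiSC A, EpiSC B, NPC2 A or NPC2 B.

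The peaks named here were dim. P1, chr2:94046243-94070067, label R, had 4 tested probes, and all 4 rose on day 1 and fell from day 1 to day 2. A_30_P01027223 was not well above background in EpiSC, at 1.82 and 1.96, and read 53.7 and 50.03 in NPC1 and 16.2 and 15.9 in NPC2. It was at least 5.53-fold higher on day 1 and fell by 1.69 to day 2 (SE 0.0689; adjusted p = 0.00035). A_30_P01020946 of P1 read 26.0 and 28.8 on day 1 and was not well above background before or after. A_30_P01018793 and A_30_P01020273 of P1 were likewise detected in NPC1 alone. All but A_30_P01027223 thus passed the filter through the group where they were high, so their calls support nothing further. P2, chr4:106506151-106537682, label F, was chosen after its values were seen, and all 5 of its probes were called higher on day 1. Only 3 of them were called lower from day 1 to day 2, and the falls of A_30_P01020311 and A_30_P01032948 did not pass the test (adjusted p = 0.091 and 0.15). A_30_P01032948 was detected in NPC1 alone and passed the filter through it, so its day 1 call supports nothing further. The same holds for A_30_P01020311, which was detected on 1 of the 2 NPC2 arrays and passed the filter through NPC1 alone. A_30_P01029951 read 6.07 and 3.76, then 37.9 and 38.1, then 15.0 and 12.6. A peak in chr19:4991356-4993113, label R, was carried by 1 probe, A_30_P01020765, at 29.5 and 17.9 on day 1 and not well above background otherwise, so it passed the filter through NPC1 alone and its p supports nothing further. Its fall from day 1 to day 2 (adjusted p = 0.034) was not called without any 1 NPC1 or NPC2 array, nor with the culture letters as a replicate block (adjusted p = 0.070).

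The clearest dip was D1, chr17:3346621-3347209, label F, 589 bp long, detected with all 3 probes on all arrays. A_30_P01021792 read 59.3 and 56.2, then 23.8 and 25.8, then 96.9 and 101. It fell by 1.22 on day 1 and ended 0.77 above EpiSC (SE 0.0696; adjusted p = 0.00103 and 0.00099). All 3 probes fell by 0.97 to 1.22 and then rose by 1.81 to 1.99, and in none did the groups overlap. D1 lies inside chr17:3198868-3394643, label F, a 195776 bp interval in which 4 of 10 probes were called lower on day 1 and 8 called higher from day 1 to day 2. In D2, chr11:68200716-68214458, label R, all 5 probes were called higher from day 1 to day 2 but only 1 was called lower on day 1. That probe, A_30_P01022701, read 11.6 and 11.3, then 4.22 and 2.86, then 24.8 and 21.4, at least 1.31-fold lower on day 1 and at least 2.63-fold higher in NPC2 than in NPC1. With normexp correction its day 1 fall was not called (adjusted p = 0.15). The other D2 probes were A_30_P01023709, A_30_P01026404, A_30_P01027618 and A_30_P01030355, all detected in NPC2 alone. They passed the filter through the group where they were high, so their calls support nothing further.

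**Figure D4:**
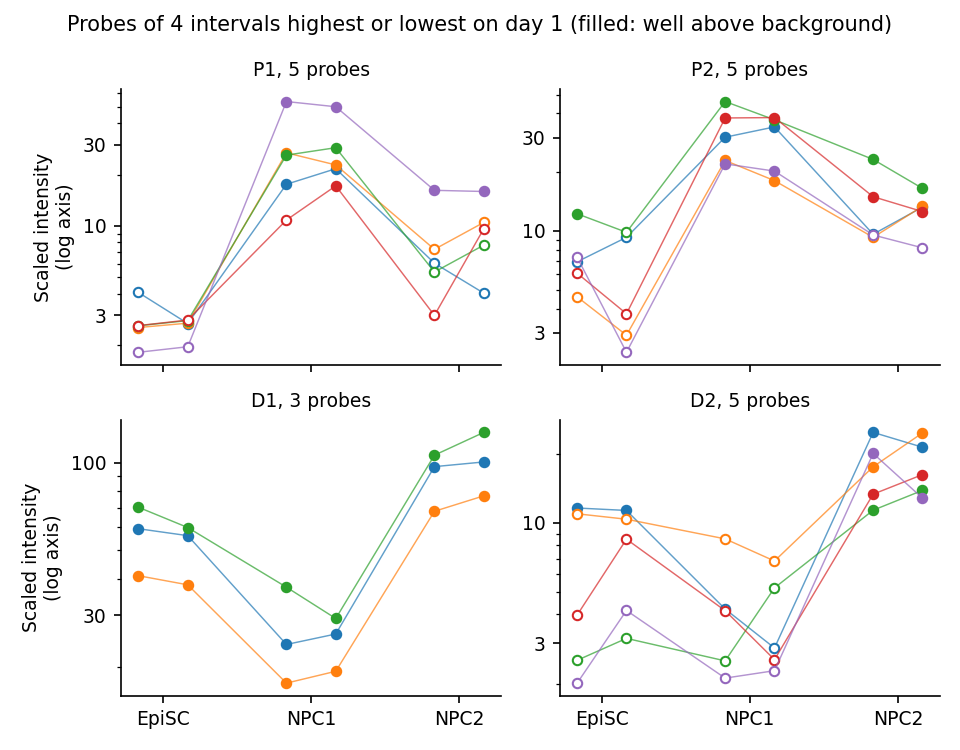
Scaled intensity (y axis, log) of every probe of P1, P2, D1 and D2 on the 6 arrays (x axis, A then B within each group), 1 colour and line per probe; filled points are well above background. P1 and P2 are highest on day 1, and D1 is lowest on day 1 with all of its 3 probes between 17.5 and 37.4 there.

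Few names held probes called in opposite directions, 14 in NPC1 against EpiSC, 36 in NPC2 against EpiSC and 10 in NPC2 against NPC1. The fullest case was chr15:61984389-62102500, label R, 118112 bp long, with 3 probes called higher and 4 lower on day 2. A_30_P01017939 read 48.9 and 49.8, then 164 and 177, then 383 and 390 (rise 2.97, SE 0.0618; adjusted p = 3.4e-05). A_30_P01020638 read 54.5 and 45.1, then 33.0 and 35.6, then 25.03 and 22.2 (fell by 1.08, SE 0.122; adjusted p = 0.0020). Of its 4 falls, those of A_30_P01025334 and A_30_P01030589 were close to the threshold and lost the call in several settings, with adjusted p of 0.087 and 0.10 when dim probes were kept. A_30_P01025334 was detected in EpiSC alone and passed the filter through that group, so its call supports nothing further. In chr5:31856417-31916414, label F, A_30_P01029297 fell from 3123 and 3095 to 1967 and 1961 on day 2, while A_30_P01026907 was at least 2.99-fold higher. In chr3:86827945-86886695, label R, A_30_P01029222 rose by 1.80 and A_30_P01026850, detected on 1 of the 2 NPC2 arrays, fell by 1.47 on day 2. The remaining intervals named for this, chr16:44717531-44724206, chr17:56687541-56694616 and chr15:51829797-51844247, all label F, had 1 or 2 probes called each way. The day 1 fall in chr16:44717531-44724206 rested on A_30_P01030226, at 12.5 and 46.5 in the EpiSC duplicates (adjusted p = 0.045), and was not called without EpiSC B or without any 1 NPC1 or NPC2 array. This probe was detected in EpiSC alone and passed the filter through that group, so its p supports nothing further.

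Where an interval had probes of both labels, the labels more often agreed in sign than not. Of 1067 such intervals 662 had a tested probe under both labels, 304 under 1 label and 101 under neither. Called probes under both labels were found in 71 intervals in NPC1 against EpiSC, 183 in NPC2 against EpiSC and 84 in NPC2 against NPC1, and their medians had the same sign in 56, 131 and 73. A called probe under 1 label alone was more frequent, in 355, 446 and 319 intervals. In chr8:67542714-67561694 all 5 tested F probes and the 1 tested R probe fell on day 2. Its F probe A_30_P01022915 read 1389 and 1486, then 719 and 712, then 187 and 168, while the R probe A_30_P01027562 read 25.03 and 18.4, then 11.2 and 15.9, then 2.69 and 2.29. In chr1:138570107-138632310, 5 of 6 tested F probes and 3 of 4 tested R probes fell. Of these R probes A_30_P01022880 and A_30_P01026856 passed the filter through EpiSC alone, the group where they were high. A_30_P01023082 passed it through NPC1 alone. The calls of these R probes support nothing further. The labels differed in chr8:90000619-90061169, an interval singled out after its values were seen, where 3 F probes were called higher and 1 R probe lower on day 2. Of the F probes A_30_P01028985, detected on all arrays, rose by 1.57, and A_30_P01023866 and A_30_P01030541, not well above background in EpiSC, were at least 4.93-fold and 2.89-fold higher. A_30_P01023866 and A_30_P01030541 passed the filter through NPC2 alone, the group where they were high. The R probe A_30_P01033533 fell by 0.29, close to the threshold (adjusted p = 0.048).

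**Figure D5:**
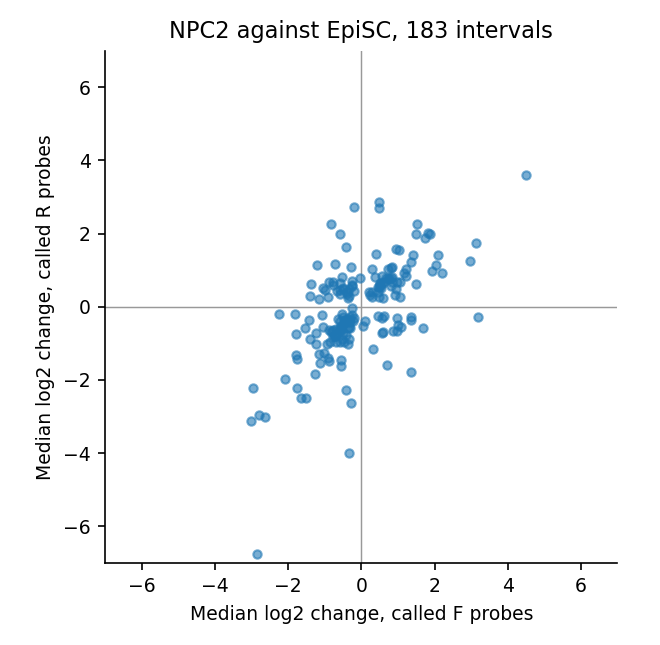
Median log2 change in NPC2 against EpiSC over the called F probes (x axis) and the called R probes (y axis) of the 183 intervals with called probes under both labels, 1 point per interval; 131 points lie in the quadrants where both medians have the same sign. Medians are of fitted values, which for probes not well above background in a group give a sign and no measured fold.

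Neighbouring intervals were compared with each other, since the files hold no gene positions in this build. The 7128487 bp interval was left out after its length was seen. Of the other 3542 intervals 2101 overlapped another. Non-overlapping pairs within 100 kb numbered 2629. Both members had called probes in 229 pairs in NPC1 against EpiSC, 422 in NPC2 against EpiSC and 190 in NPC2 against NPC1, with medians of the same sign in 191, 337 and 166. Intervals of 1 pair may be parts of 1 transcript, and an interval can enter several pairs, so the pairs are not independent. After the clusters beside L5 and L7, the next largest summed changes on day 2 were in chr5:152006587-152008784 and chr5:152029557-152030218 (medians -3.25 and -2.95, the second from 1 probe detected on 1 of the 2 NPC2 arrays) and in chr15:100905367-100905654 and chr15:100909469-100910253. In the chromosome 15 pair all 5 probes were called higher, and the 4 not well above background on either EpiSC array were at least 2.09-fold to 12.6-fold higher. Not every interval there rose. Between the pair, chr15:100908323-100908645 had a called median of -0.34 and chr15:100908725-100908912 of 1.76. For chr15:100888823-100889131 it was 0.57.

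Of the 5 interval probes with the highest mean signal, 3 were called lower on day 2 than in EpiSC and none was called on day 1 or from day 1 to day 2. A_30_P01026458, the single probe of chr11:22681800-22707775, label R, read 198319 and 205297, then 189385 and 184565, then 177784 and 165102. Its change of -0.24 on day 2 was called (adjusted p = 0.031) but lost the call in 3 of the scalings tried, at -0.07, -0.11 and -0.01. This call was also lost without EpiSC A, EpiSC B or NPC2 B, without the filter on dim probes and with the replicate block. The changes of A_30_P01020015 in chr17:39982023-39983277 and A_30_P01026091 in chr6:116123643-116124550, both label F, were -0.35 and -0.29 (adjusted p = 0.034 and 0.014). Both lost the call in the same 3 scalings, at -0.19, -0.22 and -0.13 for the first and -0.13, -0.14 and -0.07 for the second, and without any 1 EpiSC or NPC2 array. A_30_P01031448, in chr14:78924115-78938125, label F, changed by -0.17 and was not called (adjusted p = 0.087). A_30_P01021243, in chr17:48068261-48087905, label F, read 183894 and 181509, then 187573 and 187101, then 183397 and 178470, and was not called in any comparison. Of the 3 most even probes, A_30_P01020510 in chr2:145492995-145523670, label R, stayed between 416 and 431 on all 6 arrays.

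Of 24 long noncoding RNAs listed by gene name, 14 had a RefSeq probe on the array and 12 were tested. On day 1, 5 were called higher than in EpiSC and 2 lower, where 16.0% and 17.3% of all tested probes were, and on day 2, 7 and 3, where 23.9% and 30.7% were. The median log2 change of the 12 was 0.18 on day 1 and 0.45 on day 2, beside 0.06 and 0.02 for the interval probes. Meg3, a maternally expressed imprinted RNA, rose by 1.02 on day 1, from 20896 and 20263 to 41712 and 41610 (SE 0.0520; adjusted p = 0.00082). Neat1, the scaffold of nuclear paraspeckles, fell by 2.34 on day 2, from 870 and 867 to 176 and 167 (SE 0.0579; adjusted p = 4.5e-05). Pantr1, a noncoding RNA beside a neural POU factor gene, was not well above background in EpiSC or NPC1 and read 65.4 and 63.9 in NPC2. Pantr1 and Six3os1 passed the filter through NPC2 alone, the group where they were high, so their calls support nothing further. Both are among the 7 called higher on day 2 and enter the median of 0.45.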

How the data were processed

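Per the file headers, Agilent Feature Extraction read each 1-colour array and gave each spot a linear processed intensity, background-subtracted and detrended, with flags for signal well above background and for outliers. A value table deposited by the authors gives this intensity multiplied by 1 constant per array (2.10 to 2.41, deviation up to 0.0234%), with medians of 51.3 to 65.3. It is linear, not centred and has no direction, and what set the constants is unknown here.

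Control spots and spots marked as outliers were left out (35 probes, 13 of them interval probes), and spots of a probe were averaged. The log2 intensity minus each array's 75th percentile was fitted with limma 3.58.1 in R 4.3.3 (lmFit, eBayes; 1 fit of 6 arrays, 3 residual and 1.70 prior degrees of freedom; two-sided) and adjusted over 33536 probes. The fit was tested on simulated data. Scanner spots saturated: 0. Per-sample columns without a sample: 0. With 2 arrays a group, their number limits the precision.

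Lower bounds set the mean of the bright group against, on each array of the dim group, the higher of the lowest detected signal and the probe's own, as means of log2 values. Named probes followed a rule: in each comparison up to 6 largest called rises and 6 falls detected on all 4 arrays, the 3 largest bounds each way, 4 day 1 peaks and dips, 5 brightest, 3 most even, 6 intervals called both ways, 4 strand pairs and 4 groups of neighbours. The text prints part of these. The interval probes and the gene lists were chosen with earlier results of these data known. Genes outside the intervals were named through RefSeq accessions. Alternatives were another scaling, quantile normalization, normexp (offset 50), the value table, other filters, 1 value per interval, a replicate block and leaving out each array.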

Additional observations from a re-analysis of the deposited data

Results flagged for a closer look

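Of the tested interval probes, 58 in 42 names (0.774%, against 1.23% of all tested probes) were called in opposite directions against EpiSC on day 1 and day 2, with NPC2 against NPC1 called as well; 40 were higher on day 1 and lower on day 2, and 18 the reverse. Both comparisons share the EpiSC arrays, and the difference between them is the limma test of NPC2 against NPC1. Among the named probes 4 had this course. A_30_P01021792 (D1) rose by 1.99 from day 1 to day 2 (SE 0.0696), and the other 3 were not well above background in NPC1, so their rise is a lower bound. A_30_P01022701 (D2) was at least 2.63-fold higher in NPC2 than in NPC1. A_30_P01031157, in chr17:3198868-3394643, label F, was at least 1.56-fold higher, from 2.38 and 2.81 to 12.8 and 14.6. A_30_P01030425, in chr10:9322308-9332183, label R, was at least 2.87-fold higher, from 2.15 and 1.89 to 25.3 and 24.9. The last 2 were not well above background in either EpiSC or NPC1 and passed the filter through NPC2 alone, so no fold is given for day 1, and their day 1 call sets 2 such dim signals against each other. With normexp correction A_30_P01031157 was called neither on day 1 nor from day 1 to day 2 (adjusted p = 0.57 and 0.059), and A_30_P01030425 was not called on day 1 (adjusted p = 0.56).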

How the results depend on the processing

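The count alternatives follow, each as higher and lower against the main counts given in the report. For NPC1 against EpiSC, the probes called lower numbered 961 with median scaling, 408 with the 75th percentile over probes detected on all arrays and 370 with the authors' value table; without a filter on dim probes the counts were 635 and 345. For NPC2 against EpiSC the value table gave 2607 and 819. For NPC2 against NPC1, 462 were called higher without the filter. The 2-fold counts were 18 and 37, 80 and 134, and 29 and 50 with normexp, and 125 and 59, 329 and 266, and 105 and 153 over probes detected on all 6 arrays, in the 3 comparisons in that order. With 1 mean per interval and strand label, 2141 names were tested, so fewer could be called: 389 and 205, 568 and 426, and 266 and 338, and at least 2-fold 66 and 38, 174 and 135, and 62 and 94. Without the filter there were 104 day 1 peaks and 28 dips.

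Leaving out each array gave 621 to 925 higher and 300 to 536 lower (NPC1 against EpiSC), 1184 to 1648 and 979 to 1325 (NPC2 against EpiSC), 388 to 664 and 660 to 817 (NPC2 against NPC1), 98 to 152 peaks and 38 to 58 dips. The group left with 1 array is then taken to vary like the others. Arrays that moved a count by over 1.5 times were EpiSC B (621) and NPC1 A (675) for higher on day 1, EpiSC A (300) and EpiSC B (305) for lower on day 1, and NPC1 B (480), NPC2 A (412) and NPC2 B (388) for higher from day 1 to day 2. The 2-fold counts stayed at 212 to 304 and 120 to 143, 533 to 623 and 447 to 481, and 169 to 211 and 280 to 327. Deviations of arrays with equal culture letters correlated at 0.03, -0.0015 and -0.05, so the letters do not pair the arrays. With culture letters as a replicate block the counts were 936 and 524, 1566 and 1287, and 609 and 836, with 142 peaks and 51 dips.

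Of 122 called values of named probes, 100 kept direction and call in every setting that gave a value, 22 lost the call in at least 1, and 0 reversed. Normexp made 102 of them smaller by over 1.5-fold. Other causes of changed calls were not tested. Depth here means signal over background, which limits the 7353 interval probes detected on no array.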

Other observations

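The 3 intervals without a strand label, looked at after their values were seen, differed from each other. In chr17:12941161-12944859 all 5 probes were detected on all arrays and 4 were called higher in NPC2 than in EpiSC, by 0.75 to 0.79; A_30_P01018135 read 234 and 235, then 252 and 231, then 403 and 409. The fifth, A_30_P01022641, read 228 and 146 in the EpiSC duplicates and was not called (adjusted p = 0.11). In chr3:34856791-34869544 both tested probes were called higher on day 2, and A_30_P01017966 read 15.7 and 23.1, then 39.99 and 43.5, then 69.5 and 65.9. The other, A_30_P01026503, passed the filter through NPC2 alone, the group where it was high, so its call supports nothing further. In chr6:52032838-52033444 none of the 5 probes was well above background on any array.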
